A study of Mus musculus with 26 samples.

Results

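The genes described here were the adult hemoglobin chain genes Hba-a1, Hba-a2, Hbb-bs and Hbb-bt and the erythroid heme gene Alas2. They were taken by Ensembl identifier from a table of estimated transcript counts in mouse liver, 5 genes of 55642 in all, and each was measured in 26 libraries. The libraries fell into 4 groups. Mtarc1 homozygous KO mice on CDAHFD gave 8 libraries, Mtarc1 heterozygous KO mice on CDAHFD gave 7, wildtype mice on CDAHFD gave 6 and wildtype mice on a control chow diet gave 5. CDAHFD, which was fed for 2 weeks, is a fat-rich diet without choline whose protein is replaced by amino acids, and it is used to bring on fatty liver. The labels give neither how long chow was fed nor the sex, age or strain of the mice, nor which part of Mtarc1 was removed, and no knockout livers on chow were analysed here. They do not state that each library came from a separate animal, so p-values measure only the spread between these samples.

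Hemoglobin is a tetramer of alpha and beta chains, each of which holds a heme. Hba-a1 and Hba-a2 (ENSMUSG00000069919 and ENSMUSG00000069917, chromosome 11) encode the adult alpha chain from neighbouring copies, and Hbb-bs and Hbb-bt (ENSMUSG00000052305 and ENSMUSG00000073940, chromosome 7) encode adult beta chains. Alas2 (ENSMUSG00000025270, chromosome X) encodes the erythroid form of 5-aminolevulinate synthase, which catalyses the entry step of heme synthesis in developing red cells, while Alas1 serves that step in liver and other tissues. Circulating mammalian red cells have no nucleus but the young ones still carry globin RNA, so blood held in a liver sample is a usual source of globin reads.

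All 26 libraries were liver by their markers, since Alb, which encodes albumin, lay between 41436 and 91097 CPM, the count of a gene scaled to a common library size. The Mtarc1 means followed the labels, at 48.7 ± 10.4 CPM in homozygous, 161 ± 33.7 in heterozygous and 235 ± 40.7 in wildtype livers on CDAHFD. In wildtype livers on chow Mtarc1 was at 305 ± 40.2 CPM (SD). Heterozygous livers (112 to 208 CPM) and wildtype CDAHFD livers (193 to 291 CPM) overlapped in Mtarc1. Library totals were 19.73 to 29.91 M counts, and the rarest member, Hbb-bt, had 80.7 to 321 counts in a library. The 5 genes together took 0.0135 ± 0.00249% of all counts in homozygous, 0.0133 ± 0.00481% in heterozygous and 0.0134 ± 0.003% in wildtype CDAHFD livers, against 0.0236 ± 0.00381% in chow livers (SD). In bulk tissue, fewer cells of a type and less RNA per cell cannot be told apart.

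The sequences upstream of the genes are shown because the globin genes moved together while Alas2 did not. They are from RefSeq on the mouse build GRCm38.p6, on the strand of each gene, and end where either RefSeq or the main GENCODE transcript of the same build starts, whichever comes earlier. Capitals mark matches, on either strand, to 4 promoter motifs. The GATA motif was searched with the letters AGATAA and alternatively TGATAA. The CACC motif was searched with the letters CCNCNCCC, where N is any base. The TATA motif was searched with the letters ATATAA, and the remaining motif with the letters CCAAT. Hba-a2 is at chr11:32296242-32296488 (plus strand), Hbb-bs at chr7:103827929-103828178 (minus strand), Hbb-bt at chr7:103813997-103814173 (minus strand) and Alas2 at chrX:150547167-150547374 (plus strand).
Hba-a2: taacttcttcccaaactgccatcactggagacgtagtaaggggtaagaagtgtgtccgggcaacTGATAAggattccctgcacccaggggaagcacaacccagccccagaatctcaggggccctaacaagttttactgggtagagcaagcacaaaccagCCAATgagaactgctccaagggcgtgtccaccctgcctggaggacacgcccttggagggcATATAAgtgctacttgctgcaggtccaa
Hbb-bs: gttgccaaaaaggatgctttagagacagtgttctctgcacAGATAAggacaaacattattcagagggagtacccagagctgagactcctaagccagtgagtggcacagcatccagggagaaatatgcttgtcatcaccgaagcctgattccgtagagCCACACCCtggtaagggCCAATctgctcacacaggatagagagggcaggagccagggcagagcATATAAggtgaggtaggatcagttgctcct
Hbb-bt: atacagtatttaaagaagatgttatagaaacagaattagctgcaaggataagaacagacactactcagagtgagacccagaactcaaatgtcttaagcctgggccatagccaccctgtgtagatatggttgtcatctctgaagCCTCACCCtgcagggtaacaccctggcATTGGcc
Alas2: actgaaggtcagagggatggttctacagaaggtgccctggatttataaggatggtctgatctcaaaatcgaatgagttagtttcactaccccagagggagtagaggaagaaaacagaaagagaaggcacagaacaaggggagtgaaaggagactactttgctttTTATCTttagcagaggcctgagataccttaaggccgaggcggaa

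Over the 250 bases before the RefSeq start, Hba-a1 and Hba-a2 were identical along the 247 aligned bases, so only Hba-a2 is printed. Both held matches to the GATA motif, to CCAAT and to the TATA motif. Hbb-bs held all 4 motifs, as did 34 of 32851 mouse promoters of that length (0.103%). Hbb-bt held CACC, CCAAT and TATA matches and no GATA match, and its promoter was 71.7% identical to that of Hbb-bs over 244 aligned bases. Alas2 held a GATA match and 4 CACC matches that partly overlap each other, all on the opposite strand, and neither of the other motifs in this window. Matches without capitals lie wholly or partly in the bases left off, 73 of Hbb-bt and 42 of Alas2. Among all promoters 16.6% held the GATA motif, 45.9% the CACC motif, 33.8% CCAAT and 9.1% the TATA motif. A match is only a run of letters and was not tested as a site.

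The near-identical copies limit how far each globin row can be read by itself. The main Hba-a1 and Hba-a2 transcripts (699 and 554 bases) shared 477 of their 31-base words, which is 71.3% of those of Hba-a1 and 91% of those of Hba-a2. The Hbb-bs and Hbb-bt transcripts (628 and 703 bases) shared 400 words, 66.9% of those of Hbb-bs and 59.4% of those of Hbb-bt. Reads from the shared stretches are split between copies by estimation. No 31-base word was shared between alpha and beta genes or with Alas2 (2037 bases). In Alas2, 15.3% of the exon bases are overlapped by an exon of Apex2 and 3% by Mir3620, both on the opposite strand, and the sources used here do not say whether counting was by strand. Reads from those bases cannot be assigned to a strand. Apex2, a DNA repair gene named after its values were seen, was at 7.95 ± 0.684 CPM in homozygous, 8.19 ± 1.21 in heterozygous and 8.54 ± 1.09 in wildtype CDAHFD livers, against 7.13 ± 0.69 CPM in chow livers (SD).

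The comparison of diets asks what CDAHFD changed in wildtype liver. All 4 globin genes were lower in wildtype livers on CDAHFD than on chow and Alas2 was higher, so that the erythroid heme gene moved against the globins. By edgeR's quasi-likelihood test with Benjamini-Hochberg adjustment, 4 of 5 members passed an adjusted p of 0.05 as lower and 1 as higher. Among all 17104 genes tested, 27.1% were called, 12.2% as lower and 14.8% as higher, and 37.6% had an unadjusted p under 0.05, so diet calls were common in this liver. The members' median log2 fold change was -1.15, beside -0.01 over all genes tested. The same 5 chow libraries are the comparison for every CDAHFD group below.

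**Figure D1:**
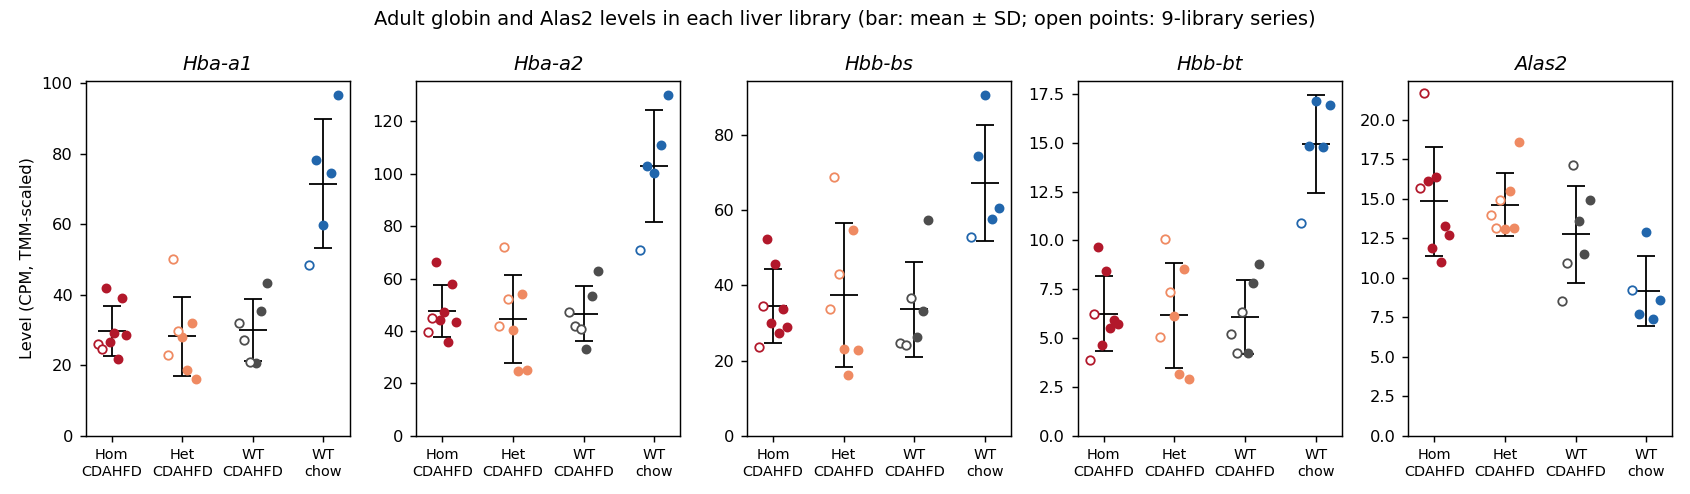
Level of each gene in every library (vertical axis, CPM on TMM-scaled library sizes, linear from 0) by group, with group means and SD as bars and open points for the 9-library number series. The 4 globin panels show chow livers above the bulk of all CDAHFD livers, with median Hba-a1 levels of 27.5, 28.1 and 29.6 CPM in the homozygous, heterozygous and wildtype CDAHFD groups and 74.5 CPM on chow, while the Alas2 panel runs the other way.

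Alpha chains fell on the diet. Hba-a1 had a lowest, median and highest level of 20.6, 29.6 and 43.2 CPM in the 6 wildtype CDAHFD livers. In the chow livers it had 48.5, 78.1, 59.8, 74.5 and 96.6 CPM. Every CDAHFD liver was below every chow liver, and the log2 fold change was -1.26 ± 0.24 (SE; adjusted p = 0.000379 by edgeR). Hba-a2 had 33, 44.7 and 62.7 CPM (lowest, median, highest) on CDAHFD, against 71.1, 102.9, 100.3, 110.8 and 130.1 CPM in the chow livers. Its groups did not overlap either, and its log2 fold change was -1.15 ± 0.22 (adjusted p = 0.000359 by edgeR). The share of all genes tested whose groups did not overlap is not given here, for this or the later comparisons. Counted as a single alpha row, the change was -1.19 ± 0.23 on the log2 scale.

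Beta chains fell by a like amount. Hbb-bs had 24.3, 29.6 and 57.4 CPM (lowest, median, highest) in wildtype CDAHFD livers. On chow the 5 libraries had 52.8, 74.3, 90.6, 57.8 and 60.5 CPM. The groups overlapped in a single library, wildtype CDAHFD replicate 6, and the log2 fold change was -0.997 ± 0.298 (SE; adjusted p = 0.0144 by edgeR). Hbb-bt, the scarcer beta row, had 4.21, 5.75 and 8.78 CPM on CDAHFD, against 10.9, 14.8, 17.2, 14.8 and 17 CPM on chow, with no overlap. Its log2 fold change was -1.29 ± 0.27 (adjusted p = 0.00078 by edgeR), and beta genes counted as a single row gave -1.05 ± 0.29.

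Alas2, the erythroid synthase gene, had 8.53, 12.5 and 17.1 CPM (lowest, median, highest) in wildtype CDAHFD livers. In the chow livers it had 9.23, 7.72, 12.9, 7.37 and 8.57 CPM. The groups overlapped, since 3 of 6 CDAHFD livers exceeded every chow liver. The log2 fold change was 0.48 ± 0.18 (SE; adjusted p = 0.0425 by edgeR), close to the threshold. Without any single library of chow replicates 1, 2, 4 and 5 or of wildtype CDAHFD replicates 3, 4 and 6, the call was lost, with log2 fold changes of 0.38 to 0.49 and adjusted p-values of 0.0655 to 0.128. It was also lost with limma voom (adjusted p = 0.058), in an edgeR fit of these groups alone (adjusted p = 0.0757) and with the number series of the libraries as a covariate (adjusted p = 0.063).

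The share of counts from the mitochondrial genome moved with the diet too, at 10.1 ± 2.33% in wildtype CDAHFD livers and 13.1 ± 2.98% in chow livers (SD). With that share as a covariate, an alternative chosen after seeing the data, the log2 fold change of Alas2 was 0.26 ± 0.16 and no longer passed (adjusted p = 0.219 by edgeR). The globins remained called in that fit, at -1.24 for Hba-a1, -1.20 for Hba-a2, -1.42 for Hbb-bs and -1.52 for Hbb-bt.

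Library names form 2 number series, which the labels do not call batches. Within the 17-library series the wildtype CDAHFD mean was 0.428 of the chow mean for Hba-a1, 0.447 for Hba-a2, 0.549 for Hbb-bs, 0.435 for Hbb-bt and 1.46 for Alas2 (3 against 4 libraries). Among the 9 libraries, with a single chow library, the same ratios were 0.551, 0.61, 0.54, 0.481 and 1.32. Over all libraries they were 0.418, 0.452, 0.501, 0.408 and 1.39, so each gene kept its direction in both series. Hbb-bs and Alas2 did not pass in the 17-library series by itself (log2 fold changes -0.86 and 0.55, adjusted p = 0.131 and 0.0647 by edgeR).

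Per kilobase of transcript, Hba-a2 was the highest of the 5 genes in every group and Hbb-bt the lowest globin. On CDAHFD the wildtype means were 84 ± 18.9 CPM per kilobase for Hba-a2, 53.6 ± 20.1 for Hbb-bs, 42.8 ± 12.6 for Hba-a1, 8.66 ± 2.69 for Hbb-bt and 6.26 ± 1.51 for Alas2 (SD, n = 6). On chow they were 186 ± 38.5, 107 ± 24.4, 102 ± 26.3, 21.2 ± 3.57 and 4.49 ± 1.08 in the same order (SD, n = 5). Hbb-bs and Hba-a1 did not differ beyond their spread in either group, and Hbb-bt and Alas2 overlapped on CDAHFD but not on chow by their SDs.

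The ratio of Alas2 counts to adult globin counts joins both genes' changes, and lower globin counts raise it even where Alas2 is level, so it is no separate evidence on Alas2. There were 115 ± 38.7 Alas2 counts per 1000 globin counts in wildtype CDAHFD livers (78.1 to 164), against 36.7 ± 11.4 in chow livers (28.2 to 50.4; SD). All 6 CDAHFD livers exceeded all 5 chow livers. The ratio between the alpha and beta genes stayed within its spread, from 1.43 to 2.66 on CDAHFD and from 1.49 to 2.93 on chow. The Hba-a2 to Hba-a1 ratio was 1.59 ± 0.184 on CDAHFD and 1.46 ± 0.142 on chow, and that of Hbb-bs to Hbb-bt was 5.54 ± 0.879 and 4.52 ± 0.741, in that order; none of these ratios was tested.

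**Figure D2:**
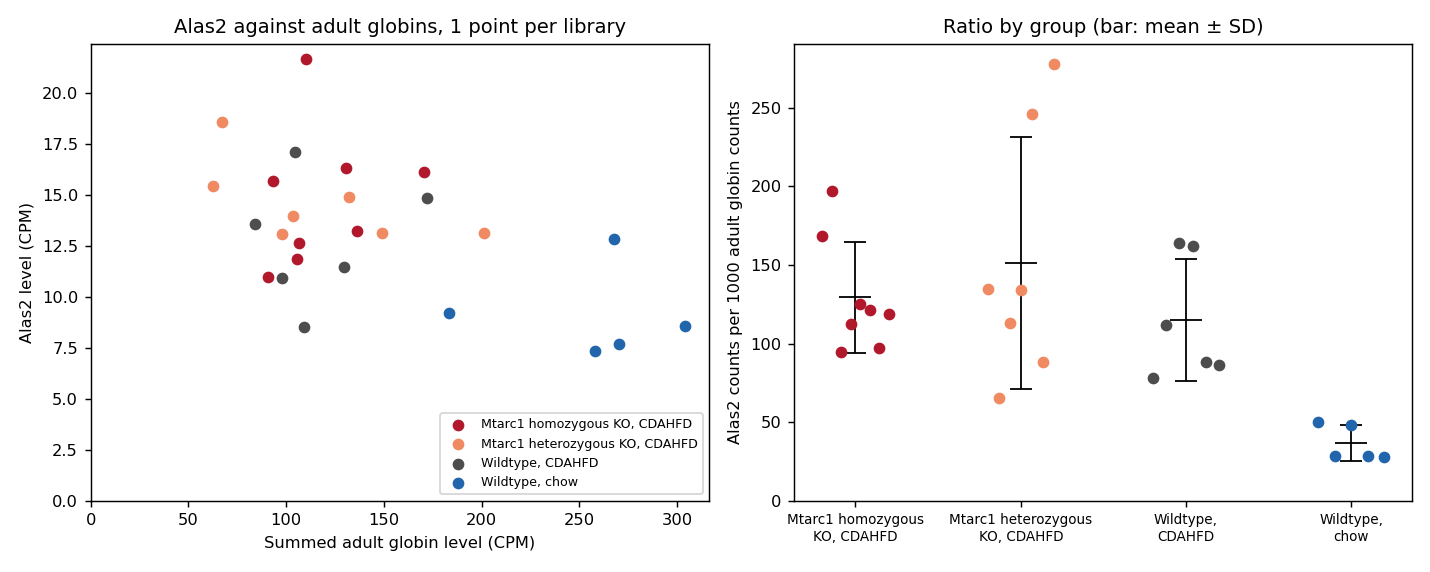
Left, Alas2 level against the summed level of the 4 adult globin genes (both in CPM, linear from 0), a point per library. Right, Alas2 counts per 1000 adult globin counts by group, with means and SD: every CDAHFD liver (65.3 to 278) lies above every chow liver (28.2 to 50.4).

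The knockout livers on CDAHFD are set against wildtype livers on the same diet to ask what loss of Mtarc1 changed. None of the 5 members passed the test in homozygous against wildtype livers, where 0.00585% of all genes were called (1 gene, Mtarc1), nor in heterozygous against wildtype livers, where 0% were called. None passed between the knockout groups either, where again 0.00585% were called. In each of these comparisons 0 of 5 members had an unadjusted p under 0.05 by edgeR, DESeq2 or limma voom. Over all genes 1705 (9.97%), 1444 (8.44%) and 1219 (7.13%) had such a p by edgeR, and DESeq2 called 61, 2 and 17 genes, in homozygous against wildtype, heterozygous against wildtype and homozygous against heterozygous livers. Mtarc1 itself was not called in heterozygous against wildtype livers (log2 fold change -0.55 ± 0.15, SE; adjusted p = 0.569 by edgeR). A lack of calls there therefore does not show a lack of change.

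Over all libraries the globin levels of the CDAHFD groups overlapped. The summed adult globin level was 118 ± 26.6 CPM in homozygous livers (90.5 to 170), 116 ± 48.8 in heterozygous livers (62.8 to 201.05) and 116 ± 31.2 CPM in wildtype livers (83.9 to 172; SD). The 95% intervals of the homozygous to wildtype fold were 0.728 to 1.35 for Hba-a1, 0.769 to 1.35 for Hba-a2, 0.7 to 1.5 for Hbb-bs and 0.726 to 1.46 for Hbb-bt. Those of the heterozygous to wildtype fold were 0.685 to 1.3, 0.714 to 1.28, 0.751 to 1.65 and 0.711 to 1.46 in the same order. Folds within these intervals are not excluded by these libraries. Heterozygous against wildtype livers took opposite signs in the number series. Among the 17 libraries the log2 differences were -0.48 for Hba-a1, -0.45 for Hba-a2, -0.40 for Hbb-bs and -0.41 for Hbb-bt, and among the 9 they were 0.36, 0.36, 0.77 and 0.53, none past the threshold (adjusted p from 0.257 to 1.0 by edgeR). The difference between the series was not tested.

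Alas2 was at 14.8 ± 3.44 CPM in homozygous livers (11 to 21.7), 14.6 ± 2 in heterozygous livers (13.1 to 18.6) and 12.8 ± 3.07 CPM in wildtype livers on CDAHFD (8.53 to 17.1; SD). Its log2 differences were 0.22 ± 0.15 for homozygous against wildtype and 0.19 ± 0.16 for heterozygous against wildtype (SE; adjusted p = 0.699 and 0.637 by edgeR), with 95% fold intervals of 0.934 to 1.45 and 0.915 to 1.43. Homozygous and heterozygous livers differed by 0.02 ± 0.15 on the log2 scale (0.825 to 1.25 fold). Homozygous against wildtype gave 0.03 among the 17 libraries of the higher number series and 0.62 among the 9 others, which hold 2 homozygous libraries. Heterozygous against wildtype gave 0.18 and 0.20 in that order. The difference between the series was not tested. The ratio of Alas2 to globin counts was 129 ± 35.5 per 1000 in homozygous and 151 ± 80.1 in heterozygous livers, and in the heterozygous group replicates 5 and 7 stood highest at 246 and 278.

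Each knockout group against wildtype chow gave the pattern of the diet comparison, with 4 members called lower and 1 higher. For homozygous livers 23.1% of all genes were called (10.8% lower, 12.3% higher; 35.9% at an unadjusted p under 0.05) and for heterozygous livers 37.2% (17.9% lower, 19.3% higher; 47.2% at an unadjusted p under 0.05). These comparisons share their chow libraries with the diet comparison and are not independent of it. In homozygous livers the log2 fold changes were -1.27 ± 0.22 for Hba-a1, -1.12 ± 0.20 for Hba-a2, -0.96 ± 0.28 for Hbb-bs, -1.25 ± 0.25 for Hbb-bt and 0.70 ± 0.17 for Alas2 (SE; adjusted p from 0.000253 to 0.0137 by edgeR). All 8 homozygous livers were below every chow liver in each globin gene, and 5 of 8 were above every chow liver in Alas2. How common such separation was among all genes tested is not given here.

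In heterozygous livers the values were -1.34 ± 0.23, -1.21 ± 0.21, -0.84 ± 0.29, -1.27 ± 0.26 and 0.68 ± 0.17 in that gene order (adjusted p from 0.000115 to 0.0234 by edgeR). Alas2 was above every chow liver in 7 of 7 heterozygous livers, while 1 heterozygous liver, replicate 2, overlapped chow in Hba-a1 and Hba-a2, and replicates 2 and 6 overlapped it in Hbb-bs. The Hbb-bs call was lost without chow replicate 2 or 3 or heterozygous replicate 7 (adjusted p = 0.0513, 0.0668 and 0.0503 by edgeR), and also without a scaling factor (adjusted p = 0.0624) or without the filter on low counts (adjusted p = 0.071). In the 17-library series the heterozygous mean was 0.307 of chow for Hba-a1 and 0.412 for Hbb-bs, whereas the 9 libraries gave 0.704 and 0.92 of their single chow library, so the size differed between the series. With the mitochondrial share as covariate, Alas2 stayed called in homozygous livers (0.43, adjusted p = 0.0468) and not in heterozygous livers (0.30, adjusted p = 0.23). That share was 9.29 ± 1.64% in homozygous and 8.08 ± 1.85% in heterozygous livers.

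**Figure D3:**
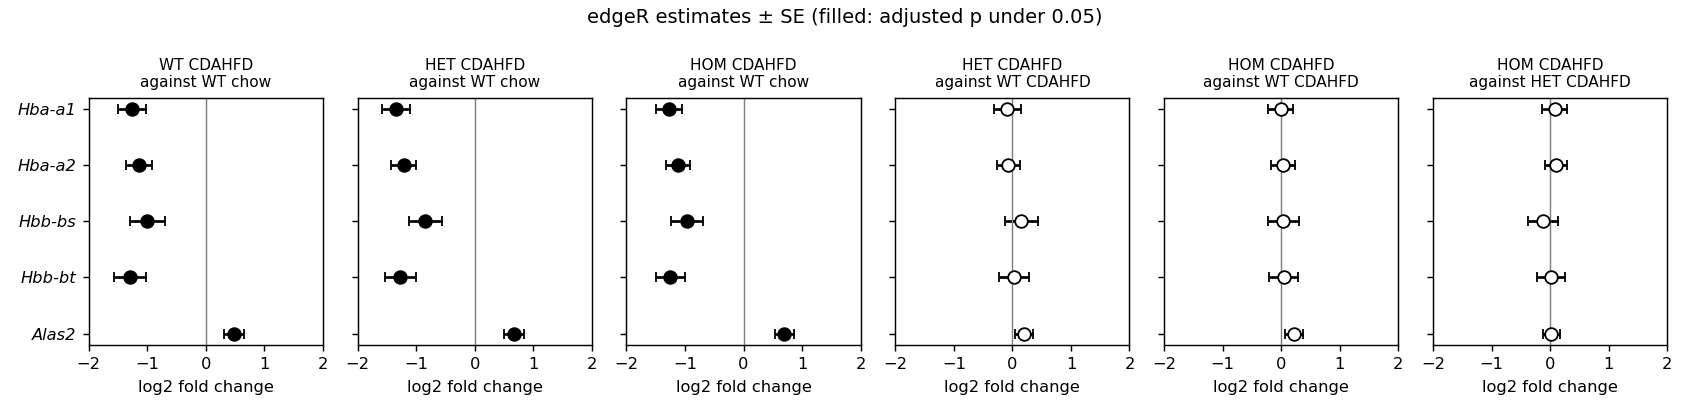
log2 fold change ± SE (horizontal axis) of each gene in the 6 comparisons, from edgeR, with filled points at an adjusted p under 0.05. The 3 panels against chow show the globins between -0.84 and -1.34 and Alas2 between 0.48 and 0.70, and the 3 panels among CDAHFD groups show every gene between -0.12 and 0.22.

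Livers of the same group varied widely in globin level, and the 4 globin genes varied together. After each group's mean was removed, the SD of log2 CPM was 0.425 for Hba-a1, 0.396 for Hba-a2, 0.52 for Hbb-bs and 0.489 for Hbb-bt. Those lie at the 92.8th to 97.7th percentile of genes of like level, whereas Alas2, with an SD of 0.296, was at the 78th. The 6 pairs of globin genes had Pearson correlations from 0.655 (Hba-a1 with Hbb-bs) to 0.943 (Hba-a1 with Hba-a2) over 26 libraries, and Spearman's rho from 0.58 to 0.939. All 6 passed in a permutation test within groups, adjusted over the 10 pairs of members (adjusted p from 3.33e-05 to 0.003 for r and from 0.0001 to 0.0104 for rho). Hba-a1 with Hba-a2 is the pair that shares most reads. Across chains no 31-base word is shared, and Hba-a2 with Hbb-bs had r = 0.798, or 0.689 without the 2 farthest livers, 0.839 among the 9 libraries and 0.78 among the 17.

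Alas2 did not follow the globins from liver to liver. Its correlations were -0.304 with Hba-a1, -0.173 with Hba-a2, 0.201 with Hbb-bs and 0.0174 with Hbb-bt, and Spearman's rho ran from -0.29 to 0.254. None passed the permutation test (adjusted p from 0.186 to 0.93 for r and from 0.234 to 0.53 for rho, over 26 libraries). Within groups of at least 6 livers, its correlation with Hbb-bt was 0.345 in homozygous, -0.812 in heterozygous and 0.346 in wildtype CDAHFD livers, so even the sign varied. These within-group values are descriptions and were not tested.

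**Figure D4:**
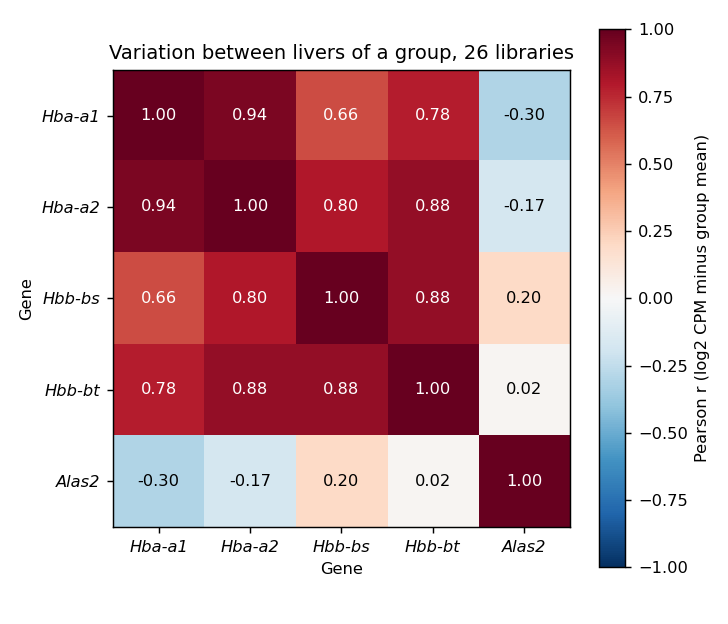
Pearson correlation of each pair of genes over 26 libraries, on log2 CPM minus the group mean (colour and number, from -1 to 1). The 4 globin genes form a block of 0.66 to 0.94, and Alas2 lies outside it at -0.30 to 0.20.

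The mitochondrial share of counts was also set against the members, liver by liver within groups, after the data had been seen. It was negatively correlated with Hbb-bs (r = -0.618, rho = -0.588) and Alas2 (r = -0.586, rho = -0.589), with adjusted p = 0.0157 and 0.0194 for r and 0.0202 for each rho by permutation over 26 libraries and 10 relations. Without the 2 farthest libraries r was -0.575 and -0.516, and within the number series it was -0.832 and -0.624 over 9 libraries and -0.544 and -0.608 over 17. Hba-a1, Hba-a2 and Hbb-bt had correlations of 0.0813, -0.0658 and -0.345 with that share, none past the threshold, and no member passed with the library total (r from -0.262 to 0.356, adjusted p from 0.265 to 0.936). The part of this share in the levels above was tested only as the covariate given there.

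The genes most alike to Hbb-bs over the 26 libraries, by Pearson r on group-centred log2 CPM among genes with a mean of at least 1 CPM, were Hbb-bt (0.882) and Hba-a2 (0.798), at ranks 1 and 2 of 13938. Hba-a1 stood at rank 75 and Alas2 at rank 4738. Outside the members, the 10 nearest were Mfsd4b3 (0.786), Mogs, Zfp955a, Slc39a8, Nuak1, Spryd4, Slc35e1, Hc, Pithd1 and Serpinf2 (0.714). Alas2 had other neighbours: Galk2 (0.864), Dock8, Arl6ip1, the unnamed ENSMUSG00000120013, Hsd17b12, Rarb, Dusp19, Abhd12, Aldh1a1 and Ces1f (0.769). The globins ranked between 4833 and 10508 for likeness to Alas2. Of the other genes followed, Fech, which encodes the enzyme that inserts iron into heme, had r = 0.704 with Alas2 and 0.484 with Hbb-bs. Bpgm, which makes the red cell metabolite 2,3-bisphosphoglycerate, had 0.363 and 0.686 in that order. Red cell genes did not all go this way. Slc25a37, another late red cell gene, had -0.421 with Alas2 and -0.505 with Hbb-bs, and Klf1 had 0.0249 with Hbb-bs. Alb, a hepatocyte gene, had 0.482 with Alas2 and 0.413 with Hbb-bs.

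Slc4a1 and Gata1, which help to define red cells besides globin, were nearly undetected. Slc4a1, the band 3 anion exchanger of the red cell membrane, had 52 counts in all 26 libraries together. Its mean was 0.0827 ± 0.0552 CPM in homozygous, 0.0713 ± 0.0625 in heterozygous and 0.0262 ± 0.0326 in wildtype CDAHFD livers. On chow it was 0.179 ± 0.124 CPM (SD), and these few counts were not tested. The scarcest globin row, Hbb-bt, had at least 80.7 counts in each library. Gata1, the master transcription factor of the lineage, had 10 counts. The embryonic chains Hba-x, Hbb-bh1 and Hbb-y and the rows Hbb-bh0 and Hbb-bh2 had 0 counts in every library, and Hbq1a and Hbq1b had 5 and 2. None of these 7 chains could be tested.

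Of 25 late red cell genes, 14 passed the filter on low counts and 3 were called in the diet comparison, 2 lower and 1 higher, with a median log2 fold change of -0.02 beside -0.01 over all genes. The share called was below the 27.1% of all genes, so the count says nothing particular about the list. Car1, carbonic anhydrase 1, fell by 1.84 ± 0.30 on the log2 scale (1.05 ± 0.399 CPM on CDAHFD, 3.75 ± 0.951 on chow; adjusted p = 6.13e-05 by edgeR). Ube2l6, which encodes a conjugating enzyme for the interferon-induced modifier ISG15 and is not particular to red cells, was higher (0.34 ± 0.10). Bpgm (0.09 ± 0.15), Slc25a37 (mitoferrin 1, -0.12 ± 0.13) and Fech (0.05 ± 0.15) did not pass. With the mitochondrial share as covariate Fech was lower instead, at -0.23 in wildtype and -0.24 in homozygous CDAHFD livers against chow, and passed the threshold by edgeR in both.

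Among 12 genes of erythroid progenitors and their transcription factors, 10 were tested, 1 was lower and 1 higher, with a median of -0.19. Of all genes tested, 12.2% were called lower and 14.8% higher. Nfe2, a transcription factor of red cell and megakaryocyte precursors, fell by 2.75 ± 0.39 on the log2 scale (0.589 ± 0.266 CPM on CDAHFD, 4.01 ± 2.35 on chow; adjusted p = 1.17e-05 by edgeR), with chow livers spread from 1 to 6.68 CPM. Lmo2, which also marks endothelial cells, was higher (0.50 ± 0.16). Klf1, an activator of the adult beta-globin genes, did not pass (-0.45 ± 0.23; adjusted p = 0.149). Against chow, Nfe2 was lower in homozygous (-2.77 ± 0.36) and heterozygous livers (-2.69 ± 0.37) too.

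The heme synthesis genes used by all cells gave 3 of 8 lower and 0 higher on CDAHFD, with a median of -0.26. The all-gene shares were 12.2% lower and 14.8% higher, and the list was not tested as a set. Ppox, protoporphyrinogen oxidase, fell by 0.49 ± 0.10, Uros by 0.35 ± 0.12 and Urod by 0.25 ± 0.08 (edgeR adjusted p from 0.000563 to 0.029). Alas1, the synthase of non-erythroid tissue, was at 453 ± 229 CPM on CDAHFD and 262 ± 48.9 on chow, a log2 difference of 0.79 ± 0.44 that did not pass (adjusted p = 0.198). Alas1 varied widely within the CDAHFD livers, from 216 to 865 CPM in the wildtype group.

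Genes that clear heme and hemoglobin gave 5 of 11 higher and 0 lower on the diet, with a median of 0.34. The all-gene shares were 14.8% higher and 12.2% lower, and the list was not tested as a set. Hmox1, heme oxygenase 1, which breaks heme down, was at 43.1 ± 9.82 CPM on CDAHFD and 13.5 ± 1.93 on chow (log2 fold change 1.68 ± 0.17; adjusted p = 2.15e-07 by edgeR). Hpx, the plasma heme binder hemopexin, rose by 0.79 ± 0.12, Hp, the hemoglobin binder haptoglobin, by 0.70 ± 0.15, and Slc48a1, a lysosomal heme transporter, by 0.50 ± 0.12. Cd163, the macrophage receptor of the haptoglobin complex, did not pass (0.18 ± 0.35). Hp and Hpx are also made by hepatocytes as plasma proteins. Among the CDAHFD groups, 0 of the 85 tested genes of all lists were called by edgeR. By edgeR 3 had an unadjusted p under 0.05 in homozygous against wildtype, 8 in heterozygous against wildtype and 4 in homozygous against heterozygous livers. Hmox1 was among them at -0.44 ± 0.14 in homozygous against wildtype livers (adjusted p = 0.28 by edgeR).

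**Figure D5:**
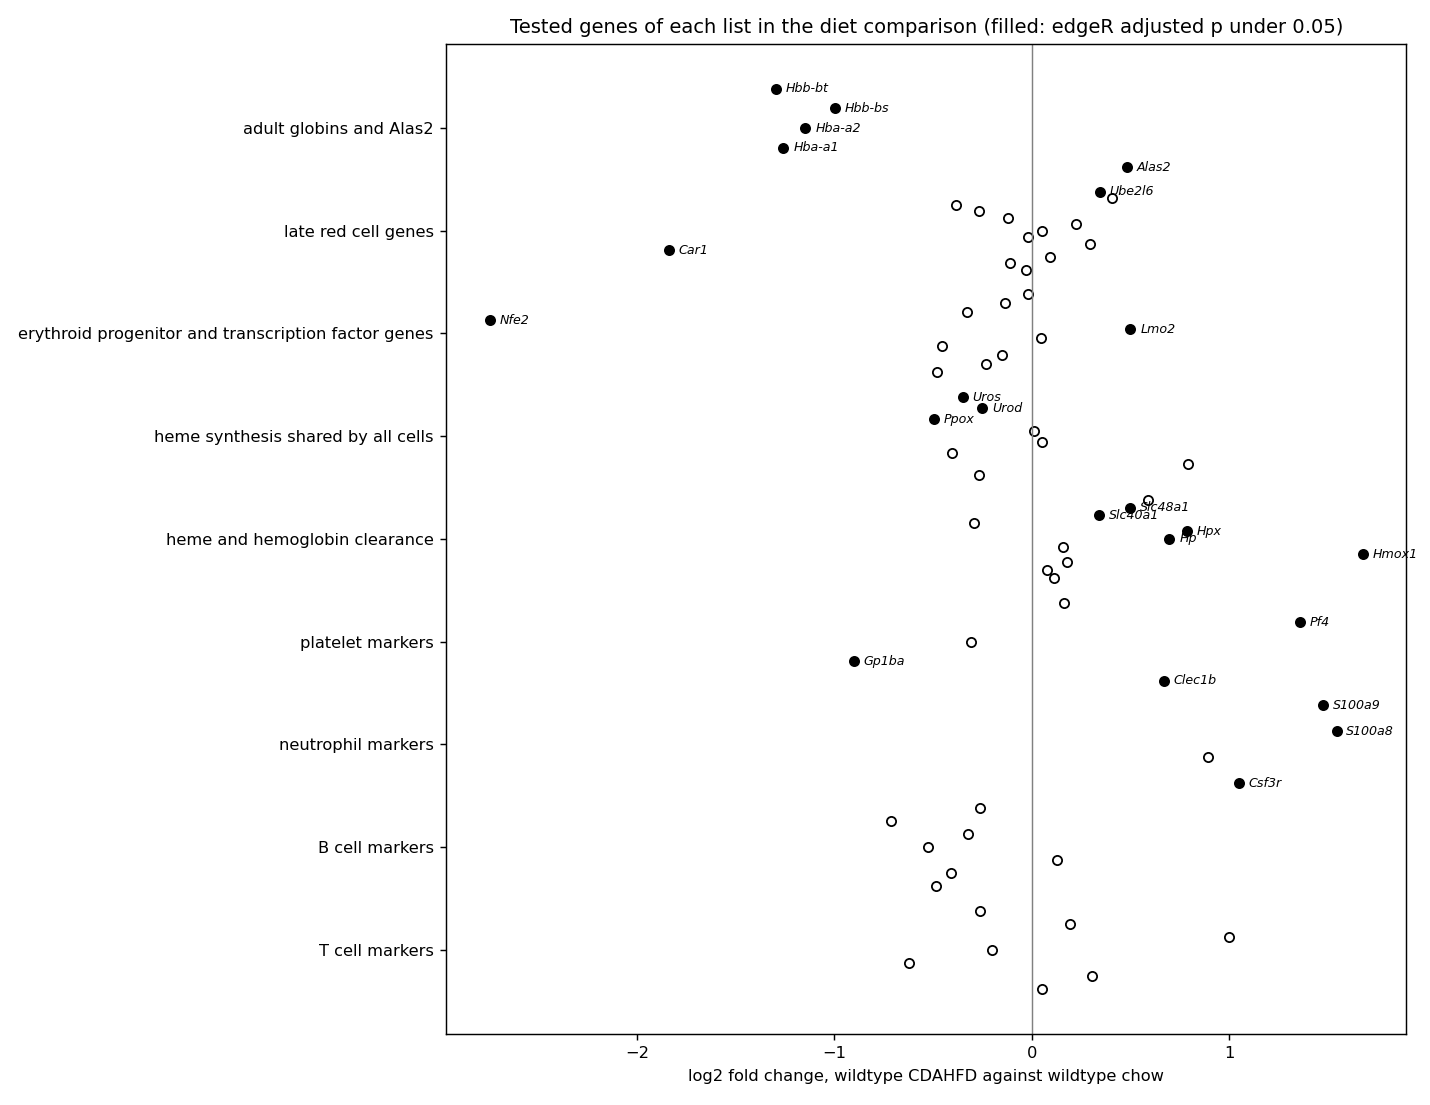
log2 fold change of wildtype CDAHFD against wildtype chow (horizontal axis) for the tested genes of each list that are reported here, with called genes filled and named. The 4 globins, Car1 and Nfe2 (-2.75) lie left of 0, and Alas2 and the 5 called clearance genes up to Hmox1 (1.68) lie right of it.

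Markers of other blood cells did not all move the way of the globins. Their calls stand beside 14.8% of all genes called higher and 12.2% called lower on the diet. In the diet comparison 5 of 11 platelet markers were tested, with Pf4 (1.36 ± 0.33) and Clec1b (0.67 ± 0.17) higher and Gp1ba (-0.90 ± 0.30) lower. The list summed to 24.1 ± 1.52 CPM on CDAHFD and 18.3 ± 3.28 on chow (SD). Without Clec1b, which is also known from Kupffer cells, the sums were 8.64 ± 1.34 and 8.65 ± 2.03 CPM, an alternative chosen after seeing the data. Of 10 neutrophil markers 4 were tested and S100a8, S100a9 and Csf3r were higher, with list sums of 6.74 to 25.2 CPM against 4.38 to 6.73. B cell and T cell markers gave 0 of 7 calls each. Ms4a1 was at -0.71 ± 0.37 (adjusted p = 0.157 by edgeR) and Cd3e at -0.62 ± 0.31 (adjusted p = 0.138 by edgeR). Of the B cell markers 6 of 7 lay below 0 (median -0.41), and of the T cell markers 3 of 7 (median 0.05). Their sums were 13.3 to 20.2 and 4.41 to 6.9 CPM on CDAHFD against 19 to 26.5 and 4.58 to 8.13 CPM on chow.

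Lists of liver cells held called genes as well, beside 14.8% of all genes called higher and 12.2% called lower. They were not tested as sets. Of 6 Kupffer cell markers 3 were higher on the diet, led by Vsig4 (1.02 ± 0.17) and Cd5l (1.39 ± 0.24), with list sums of 338 to 518 CPM against 163 to 309. All 6 cell division genes were higher, among them Ccnb2 (2.53 ± 0.34). Of 8 hepatocyte markers 4 were lower and 0 higher, with Ttr at -0.64 ± 0.13 and Alb at -0.53 ± 0.15. In 3 of the 8 the log2 fold change lay above 0 without passing. The part of any of these cell types in the globin or Alas2 levels was not tested.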

How the data were processed

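Per the labels' protocols, total RNA from liver was made into sequencing libraries with the NEBNext Ultra II RNA kit. The deposited table held the authors' estimated counts for 55642 gene identifiers in 26 libraries, and 0 columns were left unused. Per the submitters' processing notes, tools included cutadapt 3.5 and Salmon 1.4.0 and the builds GRCm39 and mm39. Strand use and the summing of transcripts to genes are not given in the sources used here. Symbols came from GENCODE annotation of GRCm38 (51475 identifiers, 92.51%).

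Estimated counts were rounded and all 26 libraries were fitted in edgeR 4.0.16 (R 4.3.3) with TMM scaling, filterByExpr, robust quasi-likelihood tests and Benjamini-Hochberg adjustment over 17104 genes. All 5 members passed the filter. Called genes have an adjusted p under 0.05. Levels are CPM on TMM-scaled library sizes. The procedure was also run on simulated counts, with an outcome that is not given here. Every simulated gene had the same dispersion, so that run does not cover the wide spread of the globins. No duplicate libraries were found: chi-square per degree of freedom was 16.9 to 129 over 74 pairs of the same group. Correlations used log2 CPM (prior count 2) minus group means and 100000 permutations within groups. The named genes were the members, Mtarc1, a fixed set of red cell, heme, platelet and neutrophil genes, up to 4 called genes with the lowest p per list, and the 10 genes most alike to Hbb-bs and to Alas2; Apex2, Cd163 and the embryonic and minor chains were named after their values were seen.

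Alternatives were DESeq2 1.42.0, limma voom 3.58.1, no scaling, no filter, fits of 2 groups, a replicate block, the number series, merged rows and leaving out each library. The members and lists were chosen with earlier results of these data known. Some genes of the late red cell list are counted with it and not reported here by name.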

Additional observations from a re-analysis of the deposited data

Results flagged for a closer look

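In 3 places a single library stood far from the rest of its group; 13 quantities in 4 groups were examined, and chance marks about 1 in 20 groups. Hbb-bs was at 57.4 CPM in wildtype CDAHFD replicate 6, where the nearest library of that group had 36.6 CPM. Alas2 was at 18.6 CPM in heterozygous CDAHFD replicate 7, where the nearest had 15.5 CPM. The ratio of Hba-a2 to Hba-a1 was 1.95 in wildtype CDAHFD replicate 3, where the nearest was 1.6; these genes share most of their sequence. Without wildtype CDAHFD replicate 6 the Hbb-bs diet difference was -1.21 on the log2 scale, and without heterozygous replicate 7 the Alas2 difference from chow stayed called.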

How the results depend on the processing

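Of the 5 members called in wildtype CDAHFD against chow, 3 were called among the 17 libraries of the higher number series. Over all genes, 2264 of 17132 were called in that fit and 4630 of 17104 in all libraries. A fit of the 9 others, which hold a single chow library, was tried after seeing the data. Its log2 fold changes in the diet comparison were -0.86, -0.71, -0.89, -1.06 and 0.40. They are given for Hba-a1, Hba-a2, Hbb-bs, Hbb-bt and Alas2 in turn. In homozygous livers against chow they were -0.94, -0.75, -0.86, -1.10 and 1.02, and in heterozygous livers -0.50, -0.36, -0.12, -0.53 and 0.60. Without 1 library at a time, the members called numbered 4 to 5 for the diet, 5 to 5 for homozygous against chow, 4 to 5 for heterozygous against chow and 0 to 0 among CDAHFD groups. No member changed direction with a call under any alternative; 656 values stayed on their side of the threshold, and 34 were past it in all libraries and not under the alternative. Without TMM scaling the median of all genes shifted by 0.22 (log2) in the diet comparison; relative to it Hba-a1 was at -1.25 and Alas2 at 0.50. Apoa1 in homozygous livers against chow turned to 0.0409 among the 9 libraries. With the mitochondrial share as covariate, Fech turned to -0.23 in wildtype and -0.24 in homozygous CDAHFD livers against chow, and Trf to -0.0522 in heterozygous livers. Not centred on group means, Hbb-bt and Alas2 gave r = -0.486, and 9 of 10 pairs passed in place of 6. With a replicate block, 5 members stayed called in each comparison with chow; of 34 same-numbered pairs of libraries 16 had a correlation over 0.1 (median 0.0683, -0.371 to 0.316), and of 217 pairs with different numbers 55 did (median -0.00435). No label says that the numbers pair samples, so they were not treated as paired. In each group the lowest replicate numbers belong to the 9-library series, so replicate number and series partly coincide. Genes called by DESeq2 in place of edgeR numbered 61 against 1 for homozygous against wildtype CDAHFD, 2 against 0 for heterozygous and 17 against 1 between the knockouts. The cause of these changes was not tested. The number series also hold fewer samples than the whole set, and the part of that was not tested either. All 5 members passed the filter on low counts, while Slc4a1 and Gata1 were too scarce to test.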
